A study of Mus musculus with 2 samples.

Results

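Genes of developing and regenerating skeletal muscle were followed in sections of mouse back skin measured by spatial transcriptomics. The list named 9 genes, chosen because earlier results of the same sections had shown them high in 1 of them, and each was found by its symbol. A row for 8 was found among the 19465 genes of the tables: *Myh3*, *Myh8*, *Mymk*, *Tnnt2*, *Tnnc1*, *Tnni1*, *Myl4* and *Myog*. *Myod1* was not analysed here. Differences between the sections, and between spots ranked by these genes, are therefore descriptions of the values that led to the list.

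One section came from an *S1pr2 f/f* mouse, in which *S1pr2* (a receptor for sphingosine 1-phosphate) is flanked by loxP sites but intact. The other came from an *S1pr2 f/f K14-Cre* mouse, in which Cre driven by the keratin 14 promoter removes the floxed gene in keratinocytes. Both mice were 8 weeks old, were depilated on the back and were treated with 62.5 mg of 5% imiquimod (IMQ) cream daily for 7 days, so neither section shows untreated skin. Each genotype had 1 section, genotype and section cannot be told apart, and no test between them was possible.

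Skeletal muscle fibres are built in steps. Transcription factors of the MyoD family, *Myog* (myogenin) among them, drive myoblasts to differentiate, *Mymk* (myomaker) lets them fuse, and the young fibre assembles its contractile apparatus first with embryonic and perinatal forms that adult forms later replace. The same sequence returns when injured adult muscle regenerates, and mouse back skin carries a thin sheet of striated muscle, the panniculus carnosus, beneath the dermis and fat.

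Counts are UMIs, tags of single captured molecules, assigned to spots that each cover a small region with several cells or parts of cells. A level is given in CPM, counts per 1000000 UMIs of the same region. The *S1pr2 f/f* section held 1282 spots marked as under tissue and 5315351 UMIs (median 3542.5 per spot). The *S1pr2 f/f K14-Cre* section held 981 such spots and 2845826 UMIs (median 2319). Of these spots, 1203 and 970 lay in connected groups of at least 20 spots. The methods of the study state fewer spots under tissue for both sections. A total of 357 spot barcodes, which name places on the array, occurred in both. *S1pr2* itself had 154 UMIs (29.0 CPM) and 54 UMIs (19 CPM), which over whole sections is no measure of its loss from keratinocytes. As a background, 1226 olfactory, vomeronasal, taste and trace amine receptor genes, which skin should hardly use, had on average 11.8 UMIs per gene in the *S1pr2 f/f* section and 17.0 in the *S1pr2 f/f K14-Cre* section, together 2715 and 7330 CPM. All bracketed ranges are 95% intervals that cover counting error alone. The genes were measured with probe pairs of unknown relative efficiency, so levels of different genes are not ranked against each other.

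The 8 genes lie on chromosomes 1, 2, 11 and 14, and 2 pairs of them lie close together (coordinates of GRCm38.p6, the assembly of the mm10 build that the files use). *Myh3* (chr11:67078273-67102291) and *Myh8* (chr11:67277124-67308634) belong to a cluster of myosin heavy chain genes on chromosome 11, with the adult fast genes *Myh2*, *Myh1* and *Myh4* between them. *Tnni1* (chr1:135783033-135810989) and *Tnnt2* (chr1:135836315-135852268) lie 25.3 kb apart. Promoter windows of 250 bases before a transcript start were found in RefSeq for 7 of the 8 genes, 9 windows in all, with none for *Mymk*. The windows below are shown for these 2 pairs, on chromosomes 11 and 1, whose windows hold a muscle-type motif or a TATA box. Their genes gathered in the same spots, but so did *Tnnc1* on chromosome 14. All are on the plus strand. Distances are counted from transcript starts, which can lie inside the gene spans given above. The *Myh3* and *Tnnt2* windows end inside these spans, and the *Tnni1* window lies wholly inside. Capitals mark the E-box CAGCTG bound by MyoD-family factors, the TEAD site CATTCC, the box TATAAA and the MEF2 site, each searched on both strands.

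*Myh3*, chr11:67078050-67078299: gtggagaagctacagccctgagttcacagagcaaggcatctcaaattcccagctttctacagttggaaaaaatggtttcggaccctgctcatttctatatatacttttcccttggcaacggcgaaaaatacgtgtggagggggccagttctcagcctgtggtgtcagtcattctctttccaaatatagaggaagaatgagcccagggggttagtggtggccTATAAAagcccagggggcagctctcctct
*Myh8*, chr11:67276874-67277123: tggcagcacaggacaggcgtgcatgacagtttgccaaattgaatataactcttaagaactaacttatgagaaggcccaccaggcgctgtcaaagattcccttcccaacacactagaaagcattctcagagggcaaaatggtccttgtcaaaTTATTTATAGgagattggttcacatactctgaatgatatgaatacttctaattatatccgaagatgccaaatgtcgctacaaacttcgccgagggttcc
*Tnni1*, chr1:135799171-135799420: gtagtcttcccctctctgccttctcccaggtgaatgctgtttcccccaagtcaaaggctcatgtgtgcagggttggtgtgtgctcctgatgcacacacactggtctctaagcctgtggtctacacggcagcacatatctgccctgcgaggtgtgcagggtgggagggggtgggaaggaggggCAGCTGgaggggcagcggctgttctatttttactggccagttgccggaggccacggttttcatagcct
*Tnnt2*, chr1:135836084-135836333: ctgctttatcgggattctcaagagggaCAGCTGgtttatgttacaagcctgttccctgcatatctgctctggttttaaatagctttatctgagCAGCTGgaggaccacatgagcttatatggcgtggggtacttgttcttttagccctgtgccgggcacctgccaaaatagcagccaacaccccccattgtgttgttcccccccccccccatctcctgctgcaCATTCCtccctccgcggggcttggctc

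The *Tnnt2* window held 2 CAGCTG boxes, with first bases 223 and 157 bases before the start, and a CATTCC site at 27 bases. The *Tnni1* window held 1 CAGCTG box at 68 bases, and a further *Tnni1* window, for a start downstream, contains the same box. The *Myh3* window held TATAAA at 29 bases. The *Myh8* window held a MEF2 site at 99 bases, inside which the reverse of TATAAA also lies. Over the 32851 mouse windows of the same length, 13% held CAGCTG, 12.6% held CATTCC, 12.4% held TATAAA and 2.92% a MEF2 site. Of the 7 genes with a window, 2 held CAGCTG, and 2 held CATTCC, *Tnnt2* and, at 58 bases on the opposite strand, *Tnnc1*. No exact match to these motifs was found in the windows of *Myl4* and *Myog* or in the second window of *Tnnt2*. Variants that differ by 1 letter were not counted. The *Myog* window holds CAGTTG and CTATATTTAT, each 1 letter from a searched motif, so its lack of a match is not a lack of such sites. The CArG box, bound by serum response factor, was in 0 windows of the members and in 1.47% of all windows.

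Over whole sections, the 8 genes together had 178 UMIs (33.5 CPM) in the *S1pr2 f/f* section and 1870 UMIs (657 CPM) in the *S1pr2 f/f K14-Cre* section, or 19.6-fold (16.8 to 23) as much. On the log2 scale the difference was 4.29 (4.07 to 4.52). Every gene had the higher level in the *S1pr2 f/f K14-Cre* section. All 8 were at least 2-fold higher there, beside 28.5% of the 18125 genes that reached 20 UMIs, and since the list was chosen on this contrast nothing is read from that count.

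Among the myosin heavy chains, the motors of the thick filament, embryonic *Myh3* had 34 UMIs in the *S1pr2 f/f* section and 219 in the *S1pr2 f/f K14-Cre* section (6.40 and 77.0 CPM, ratio 12, 8.36 to 17.8). Perinatal *Myh8* had 24 and 489 UMIs (4.52 and 172 CPM, ratio 38.1, 25.3 to 60.0). *Myl4*, the myosin light chain of embryonic and atrial muscle, had 33 and 458 UMIs (6.21 and 161 CPM, ratio 25.9, 18.2 to 38.1). The intervals of *Myh8* and *Myl4* lay above that of *Myh3*.

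The troponins of the list belong to the thin-filament switch that makes contraction depend on calcium. *Tnnt2*, the cardiac and embryonic troponin T, had 17 and 150 UMIs (ratio 16.5, 9.96 to 29.0). *Tnnc1*, troponin C of heart and slow fibres, had 14 and 118 (ratio 15.7, 9.02 to 29.7). *Tnni1*, troponin I of slow and developing fibres, had 14 and 243 (ratio 32.4, 19 to 60.2). The intervals of the troponins overlapped.

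The genes that act before the sarcomere is built were *Mymk* and *Myog*. *Mymk* had 16 UMIs in the *S1pr2 f/f* section and 64 in the *S1pr2 f/f K14-Cre* section (ratio 7.47, 4.27 to 13.8), and *Myog* had 26 and 129 (ratio 9.27, 6.05 to 14.7). Their intervals lay below that of *Myh8* and overlapped that of *Myh3*. With the mean of a receptor gene taken off each count, the ratios were 20.7 for *Mymk*, 14.7 for *Myog*, 17.0 for *Myh3* and 72.1 for *Myh8*, so the order of *Mymk* and *Myh3* depended on the background. For *Mymk* only 4.23 *S1pr2 f/f* UMIs were then left. The ratios were 38.8 for *Myl4*, 47.5 for *Tnnt2* (5.23 UMIs left), 84.6 for *Tnnc1* and 189 for *Tnni1* (2.23 left for each). Ratios on so few UMIs are uncertain.

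**Figure D1:**
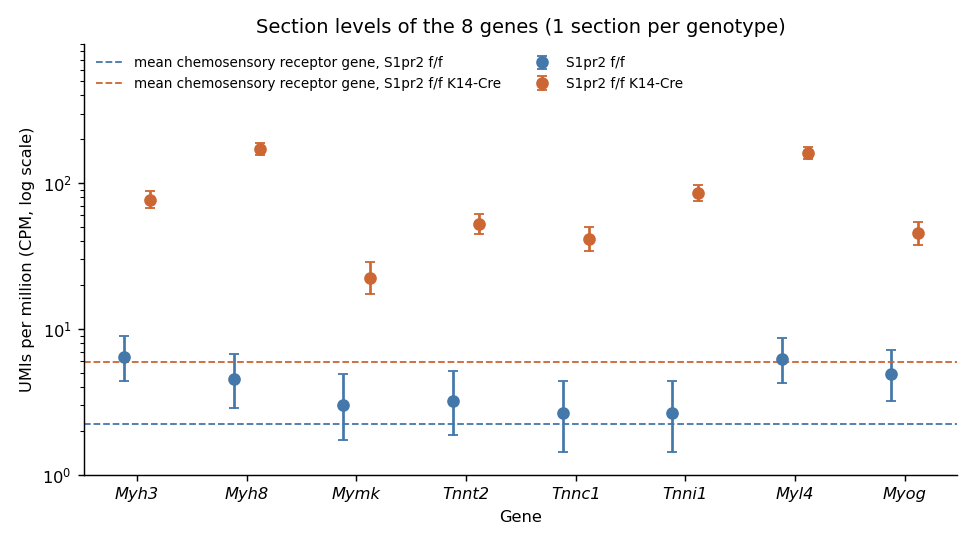
Level of each gene in the S1pr2 f/f section (blue) and the S1pr2 f/f K14-Cre section (orange), in CPM on a log axis, with 95% Poisson intervals. Dashed lines give the mean level of a chemosensory receptor gene in each section. The orange points, from 22.5 CPM (Mymk) to 172 CPM (Myh8), lie above the orange line, while blue intervals of Mymk, Tnnt2, Tnnc1 and Tnni1 cross the blue line.

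The *S1pr2 f/f* section was close to background for several members. Ranked among the receptor genes there, *Tnnc1* and *Tnni1* lay at the 68.7th percentile, *Mymk* at the 77.7th and *Tnnt2* at the 81.6th, whereas *Myh8* (96.4th), *Myog* (97.7th), *Myl4* (99.3rd) and *Myh3* (99.4th) lay higher. All 8 lay, in the *S1pr2 f/f K14-Cre* section, between the 99.7th and the 100th percentile. Receptor genes were themselves 2.70-fold (2.64 to 2.76) higher in the *S1pr2 f/f K14-Cre* section. Muscle in general also took more of that section: 14 genes of adult fast fibres, among them *Myh4*, *Ckm* and *Atp2a1*, made up 1.70% of UMIs in the *S1pr2 f/f* section and 5.65% in the *S1pr2 f/f K14-Cre* section, a ratio of 3.32. Set against the UMIs of these adult genes in place of all UMIs, the members differed 5.90-fold (5.06 to 6.92). In such sections more muscle in the cut and more RNA per fibre cannot be told apart.

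Spots with a UMI of a member were few. *Myl4* was found in 108 *S1pr2 f/f K14-Cre* spots (11.0%) and 29 *S1pr2 f/f* spots (2.26%), and *Myh8* in 100 (10.2%) and 12 (0.936%). After thinning to 1000 UMIs, which left 870 and 978 spots, the shares were 6.09% and 0.409% for *Myl4* and 4.94% and 0.204% for *Myh8*. Spots with at least 2 of the 8 genes numbered 94 in the *S1pr2 f/f K14-Cre* section and 12 in the *S1pr2 f/f* section, and 7 *S1pr2 f/f K14-Cre* spots held all 8 genes. Spots were also ordered by adult muscle genes, within each section, and put in 5 bins. In the lowest bin, where muscle is scarce, 13.7% of *S1pr2 f/f K14-Cre* spots (median 2630.5 UMIs) still had a UMI of a member. For *S1pr2 f/f* spots (median 5189.5) this was 6.82%. The shares were 44.4% and 10.5% in the fourth bin and 29.1% and 18.7% in the highest. No *S1pr2 f/f* spot had more than 6 UMIs of the members, while the highest *S1pr2 f/f K14-Cre* spot had 285.

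At 1 end of the *S1pr2 f/f K14-Cre* tissue the members gathered. Array columns 0 to 49 held 79.5% of the member UMIs in spots with at least 500 UMIs, at 1310 CPM (1244 to 1378), against 314 CPM in columns 50 to 99, 272 CPM in columns 100 to 149 and 93.5 CPM in the remaining columns. The same columns of the *S1pr2 f/f* section had 26.1, 72.4, 28.4 and 18.4 CPM. The 10 spots with the most member UMIs held 52.5% of all in the *S1pr2 f/f K14-Cre* section and 22.5% in the *S1pr2 f/f* section. The position of 1 section is a single cut through 1 mouse, so no place along the back is compared.

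**Figure D2:**
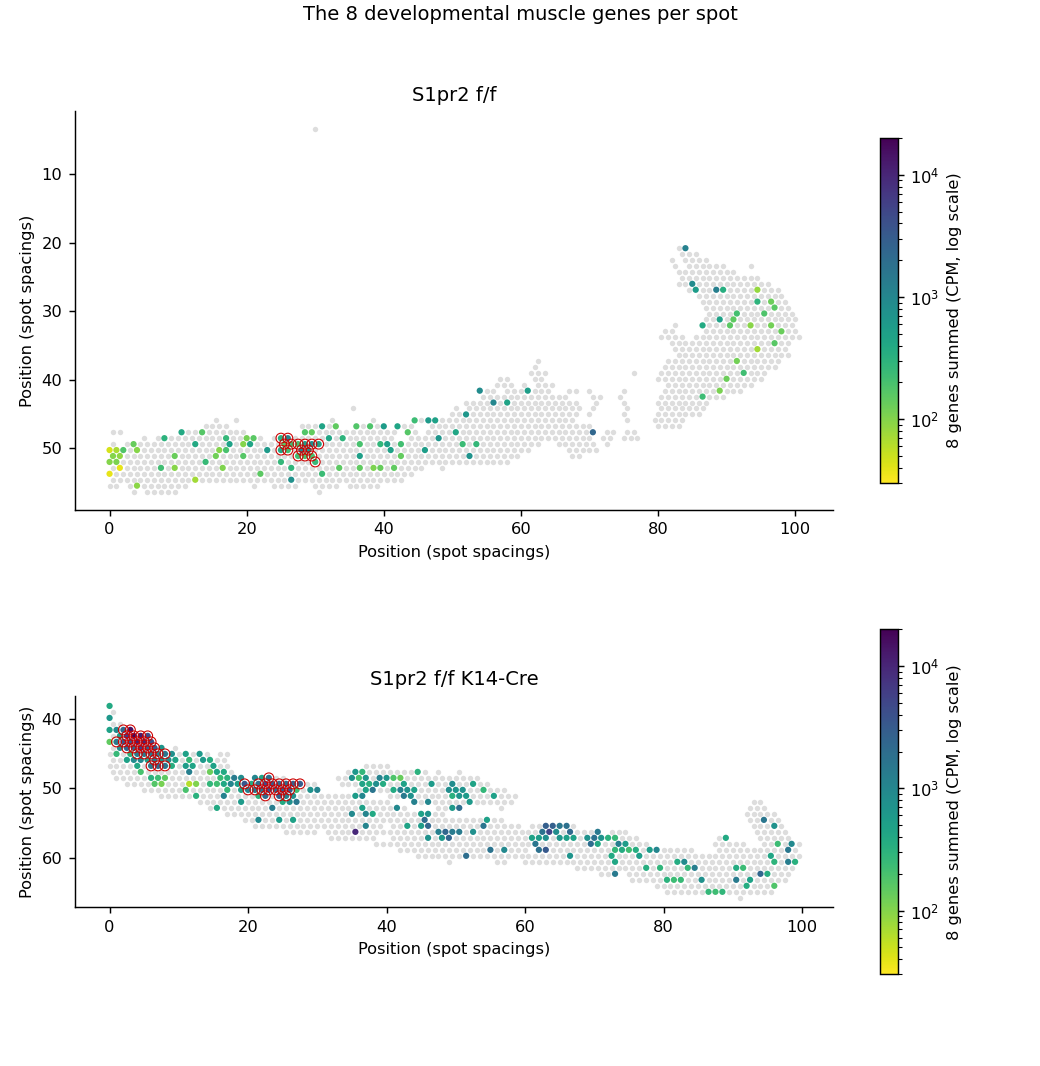
Spots with at least 500 UMIs at their places on the array (both axes in spot spacings), coloured by the summed level of the 8 genes in CPM on a log scale; grey spots had no UMI of them. Red rings mark the largest connected groups of member-rich spots: 16 spots in the S1pr2 f/f section, and 26 spots (left) and 19 spots in the S1pr2 f/f K14-Cre section.

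Spots were called member-rich when they were among the 10% with the highest share of member UMIs, out of spots with at least 500 UMIs. These were 95 of 947 *S1pr2 f/f K14-Cre* spots, the lowest at 981 CPM and the next outside at 974 CPM, and 110 of 1096 *S1pr2 f/f* spots, with 88.0 and 83.7 CPM at the same limit. A spot could qualify with 1 UMI in either section, as 5 of the 95 and 72 of the 110 did. Of the 95 spots, 26 formed 1 connected group, a share of 27.4% (18.7% to 37.5%), and a second group had 19 spots, while 26 spots stood alone. The largest *S1pr2 f/f* group had 16 of 110 spots and 60 stood alone. The largest *S1pr2 f/f K14-Cre* group, at array columns 2 to 16, held 1204 member UMIs, or 64.4% of the section, at 5009 CPM (4730 to 5300). The second, at columns 39 to 55, held 196 UMIs (10.5%) at 2559 CPM (2213 to 2944). Their median depths were 7787.5 and 3895 UMIs per spot, against 2380 for all spots with at least 500, and the part that depth had in which spots were called rich was not tested.

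The single spots given next were picked by their member UMIs, so they describe the values and do not test whether the genes coincide. The spot with the most member UMIs, at array row 49 and column 7, had 15942 UMIs in all, of which 53 were *Myh3*, 64 *Myh8*, 69 *Myl4*, 41 *Tnni1*, 27 *Tnnc1*, 25 *Tnnt2*, 3 *Mymk* and 3 *Myog*. It was the highest spot of the section by UMIs for 6 of the 8 genes. The section median was 2319 UMIs per spot, and the part of depth in this was not tested. Its neighbour at row 50 and column 8 had 25 *Myh3*, 41 *Myh8*, 37 *Myl4*, 22 *Tnni1*, 9 *Tnnc1*, 19 *Tnnt2*, 2 *Myog* and 8 *Mymk* UMIs, the most of any spot for *Mymk*. There were 11 spots with at least 30 member UMIs, all of them in the largest group, and they held 1013 UMIs (54.2%).

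*Myog* departed from the others. Its highest spot, at row 65 and column 71, had 16 *Myog* UMIs of 1712 in all and no UMI of another member, and it lay in neither large group. The largest group held 24.8% of *Myog* UMIs and 50% of *Mymk* UMIs, against 58.0% of *Myh3*, 62.9% of *Myl4*, 70.0% of *Tnni1*, 72.4% of *Myh8*, 74.0% of *Tnnt2* and 76.3% of *Tnnc1*. To avoid using a gene in its own ranking, spots were ranked by the other 7 genes and the left-out gene was measured in the top 10%. On the fold between those spots and the rest, *Tnnc1* had 27.2 (16.7 to 46.5), *Myh8* 22.5, *Tnnt2* 22.5, *Myh3* 18.6, *Tnni1* 18.1, *Myl4* 14.6 (11.8 to 18.1), *Mymk* 5.73 (3.40 to 9.66) and *Myog* 2.96 (2.02 to 4.31). The *Myog* and *Mymk* intervals thus lay below those of the 6 sarcomere genes. In the *S1pr2 f/f* section the same measure had an interval above 1 for *Tnni1* alone (8.31, 2.53 to 29.1, from 8 UMIs in the top spots), and the other 7 intervals included 1.

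The groups differed in their makeup. *Myh3* supplied 26.4% (22.5% to 30.6%) of the *Myh3* and *Myh8* UMIs in the largest group, 127 of 481 in all, and 47.6% (36.4% to 58.9%) in the second group, from 39 and 43 UMIs. *Tnnt2* had 462 CPM (380 to 556) in the largest group and 131 CPM (62.6 to 240) in the second. *Mymk* and *Myog* had 133 CPM each in the largest group and 104 CPM each in the second. A smaller group of 7 spots at columns 125 to 133, with 34 member UMIs, had 15 of *Myh8* and 1 of *Tnni1*. The *S1pr2 f/f* section had a group of its own, of 16 spots at columns 50 to 61, with 38 member UMIs at 457 CPM (323 to 627). It held 23 of the 24 *Myh8* UMIs of that section and 6 of the 14 *Tnni1* UMIs, with 3 of *Myh3*, 2 each of *Tnnt2*, *Tnnc1* and *Myog*, and 0 of *Mymk* and *Myl4*.

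Without the largest group of each section, a choice made after seeing the maps, the 8 genes had 255.6 CPM in the *S1pr2 f/f K14-Cre* section and 26.8 CPM in the *S1pr2 f/f* section, a ratio of 9.55 (7.95 to 11.5). Of the members, *Myl4* then had 170 and 33 UMIs (ratio 10.3, 7.09 to 15.5), *Myog* 97 and 24 (8.12, 5.15 to 13.3) and *Mymk* 32 and 16 (4.02, 2.14 to 7.84). *Myh8* had 135 and 1 UMIs, *Myh3* 92 and 31 (5.96, 3.93 to 9.27), and *Tnni1* 73 and 8 (18.3, 8.83 to 44.0). The ratio dropped from 16.5 to 5.22 for *Tnnt2* and from 15.7 to 4.69 for *Tnnc1*. Every ratio thus had an interval above 1, but those of *Mymk* and *Tnnc1* (2.31 to 10.1) included 2.70, the ratio of the receptor genes over whole sections.

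The members followed adult muscle loosely from spot to spot. Spots with at least 500 UMIs were put in 5 bins of equal size by the share of their UMIs on the 14 adult genes. In the *S1pr2 f/f K14-Cre* section the members had 77.4 CPM in the lowest bin, 285, 794 and 1627 CPM in the next 3, and 477 CPM in the highest, in which adult genes made up 16.0% of UMIs. The *S1pr2 f/f* bins, cut within that section at lower adult shares, had 12, 16.0, 34.5, 48.3 and 82.3 CPM. Their highest value was in the bin richest in adult muscle. The background expected from receptor genes was 72.6 CPM in the lowest and 13.1 CPM in the highest *S1pr2 f/f K14-Cre* bin, so the lowest bin was near background and the others above it. Per 1000 adult UMIs, the members had 66.8, 66.2, 36.5, 19 and 2.99 UMIs from the lowest to the highest *S1pr2 f/f K14-Cre* bin. In the *S1pr2 f/f* bins these were 44.7, 18.5, 11.9, 2.29 and 1.02. The bins are ordered by the adult share that divides this ratio, so a fall is largely built in and nothing is read from it.

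Of the 8 genes, 7 had their highest *S1pr2 f/f K14-Cre* level in the fourth bin and *Mymk* had it in the third (51.2 CPM, 33.5 to 75.1). *Myog* was spread over the bins, with 19.3, 63.0, 37.4, 69.1 and 40.5 CPM from the lowest to the highest bin, while *Myh8* ran from 1.61 to 485 CPM. The *Myog* value of the second bin rested largely on 1 spot, the *Myog* spot described above, which held 16 of its 32 UMIs. For the sum, the fourth bin was 3.41-fold (2.98 to 3.90) above the highest. The fold was 6.39 (3.15 to 14.7) for *Tnnc1*, 3.93 for *Myh3*, 3.90 for *Myl4*, 3.77 for *Tnnt2*, 3.69 for *Myh8*, 2.37 for *Tnni1*, 1.95 (0.788 to 5.26) for *Mymk* and 1.71 (1.01 to 2.95) for *Myog*. Thus 6 of 8 members were at least 2-fold higher in the fourth bin, beside 18.7% of the 8192 genes that reached 20 UMIs in these bins, and the median log2 ratio was 1.90 for the members and 0.29 for all those genes. In the *S1pr2 f/f* section the fourth bin was below the highest for the sum (0.587, 0.385 to 0.883), and each single gene had an interval that included 1. There 6 of 8 members had their highest level in the highest bin, from as few as 4 UMIs (*Mymk*). The share of all genes with their highest level in a given bin was not computed, so nothing is read from either count of highest levels.

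Part of this pattern rested on the largest group, of which 11 spots fell in the fourth bin and 4 in the highest. Without it, the *S1pr2 f/f K14-Cre* bins had 77.4, 168, 380, 469.6 and 235 CPM, and the fourth exceeded the highest 2.00-fold (1.60 to 2.50). The fold stayed above 1 by its interval for *Myh8* (5.77, 3.23 to 11.1), *Tnnt2* (5.38, 1.80 to 21.7) and *Myl4* (2.31, 1.45 to 3.75), and it was 1.21 for *Myh3*, 1.61 for *Mymk*, 1.17 for *Myog*, 0.897 (0.217 to 3.53) for *Tnnc1* and 0.807 (0.413 to 1.55) for *Tnni1*, with intervals that included 1. The *Tnnc1* fold rested on 5 UMIs in the fourth bin and 6 in the highest, and the *Tnni1* fold on 18 and 24. Without the group, a higher or a lower level of these 2 genes in the fourth bin thus could not be told. The highest bin over the other bins together had a log2 ratio of -0.57 (-0.75 to -0.38) with the group and -0.15 (-0.44 to 0.13) without it. For the *S1pr2 f/f* section, whose bins had lower adult shares, this log2 ratio was 1.75 (1.30 to 2.20).

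**Figure D3:**
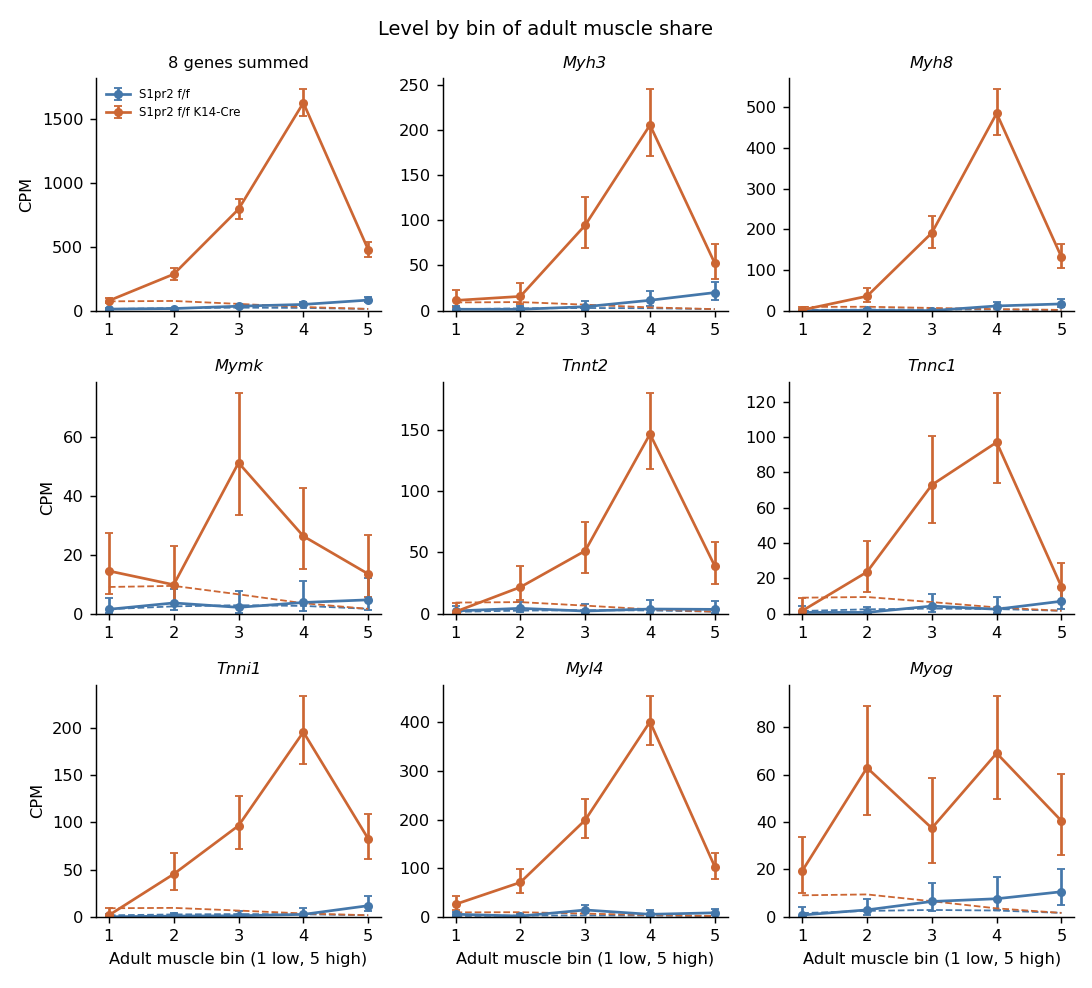
Level in CPM (linear axes from 0) of the 8 genes summed and of each gene in 5 bins of spots ordered by adult muscle share, for the S1pr2 f/f section (blue) and the S1pr2 f/f K14-Cre section (orange), with 95% Poisson intervals. Dashed lines show what receptor genes would give. Bins were cut within each section, so bins of the same rank differ in adult share. In the S1pr2 f/f K14-Cre section 7 of 8 genes are highest in bin 4 and Mymk in bin 3. The share over all genes was not computed for this count.

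Over the 947 *S1pr2 f/f K14-Cre* spots, which share library and depth, Spearman's rho between member and adult shares was 0.181, and over 1096 *S1pr2 f/f* spots it was 0.137. Of all spots, only 253 of 981 and 117 of 1282 had a member UMI, which limits any rho. The top 10% of spots by members and the top 10% by adult genes shared 2 of 95 spots (2.11% of each) in the *S1pr2 f/f K14-Cre* section and 18 of 110 (16.4% of each) in the *S1pr2 f/f* section. Unrelated sets of this size would share about 10% of each. The highest member spot, with 1.79% of its UMIs on the members, ranked 364 of 947 by adult share (4.86%). Member UMIs exceeded adult UMIs in 6 *S1pr2 f/f K14-Cre* spots and 2 *S1pr2 f/f* spots. The *S1pr2 f/f K14-Cre* spots concerned lay outside both large groups and were low in adult muscle. Among them was the *Myog* spot, with 16 member and 13 adult UMIs. The others, in the lowest adult bin, had at most 6 member UMIs. As to place within the skin, member-rich *S1pr2 f/f K14-Cre* spots lay at a median of 4.58 spot spacings from the nearest epidermis-rich spot, adult-rich spots at 8.54 and all spots at 3.46. The *S1pr2 f/f* section had the same order, at 4.79, 7.21 and 3.61, although 72 of its 110 member-rich spots held 1 member UMI. This depth is therefore not particular to the *S1pr2 f/f K14-Cre* section.

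**Figure D4:**
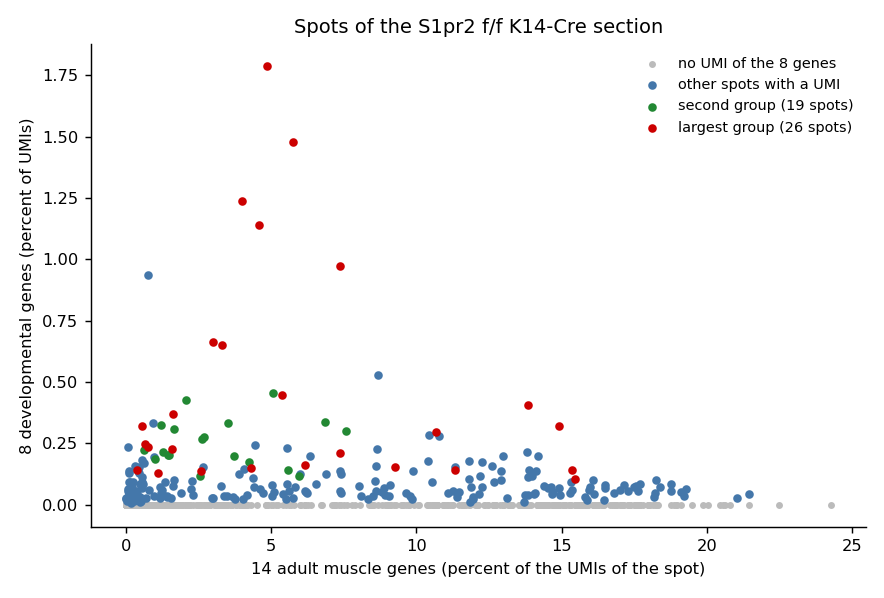
Each point is a spot of the S1pr2 f/f K14-Cre section, with the share of its UMIs on 14 adult muscle genes (x axis, percent) and on the 8 developmental genes (y axis, percent). The highest member shares, up to 1.79% in the largest group (red), stand at middle adult shares, and spots with the highest adult shares hold few or no member UMIs.

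At 1 cut within the largest group, several members did not differ beyond counting error between spots with less and with more adult muscle. Its 26 spots were split after seeing their values into 13 with adult shares of 0.381% to 4.57% and 13 above. The spot with the most member UMIs (4.86%) was the first above the cut. It held 53 of the 78 *Myh3* UMIs of the upper 13, 69 of 174 for *Myl4*, 41 of 103 for *Tnni1* and 25 of 69 for *Tnnt2*. The member ratios below thus depend on the place of the cut, and no other cut was tried. Adult *Myh4* was 0.104 times (0.0917 to 0.117) as high in the lower 13 as in the upper 13. *Myh3* (0.936, 0.641 to 1.35), *Myl4* (0.976, 0.764 to 1.24), *Tnni1* (0.969, 0.701 to 1.33) and *Tnnt2* (0.906, 0.602 to 1.35) differed by less than their counting error. *Myh8* was lower in the lower 13 (0.726, 0.576 to 0.910) and *Mymk* was higher there (2.84, 1.31 to 6.53, from 21 and 11 UMIs). The matrix genes *Tnc* (1.71, 1.42 to 2.05) and *Postn* (1.75, 1.28 to 2.39) were higher where adult genes were low.

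Each sarcomere member was also set against 1 adult fast form of the same protein. *Myl1*, the counterpart of *Myl4*, is also counted below among the further genes of developing fibres. *Tnni1* and *Tnnc1* are also used in slow fibres, so their shares can differ with fibre type, which was not tested. For all pairs, the groups were picked by member share and the bins by adult share. A higher share in the groups than in the highest bins is therefore largely built in, and nothing is read from it. In the highest adult bin of the *S1pr2 f/f* section, *Myl4* made up 0.213% (0.0859% to 0.439%) of *Myl4* and *Myl1* UMIs. In the highest adult bin of the *S1pr2 f/f K14-Cre* section the share was 2.71% (2.08% to 3.47%), and in the largest group it was 30.7% (27.8% to 33.8%). *Tnni1* made up 0.454%, 2.36% and 27.2% of itself and *Tnni2* at the same places, and *Tnnt2* 0.0357%, 0.310% and 9.74% of itself and *Tnnt3*. The intervals of both highest bins did not overlap for these 3 genes. These bins differ in adult muscle, with adult genes at 8.05% of UMIs in the *S1pr2 f/f* bin and 16.0% in the *S1pr2 f/f K14-Cre* bin. Because 4 spots of the largest group lie in the highest *S1pr2 f/f K14-Cre* bin, the shares were also taken without the largest group of each section. They were then 0.225% (0.0905% to 0.463%) and 1.42% (0.947% to 2.05%) for *Myl4* and 0.247% (0.0801% to 0.575%) and 1.29% (0.831% to 1.92%) for *Tnni1*, still apart. For *Tnnt2* they were 0.0378% (0.00781% to 0.111%) and 0.0572% (0.0156% to 0.146%), which overlapped.

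Other pairs differed less between the highest bins. *Tnnc1* made up 0.0767% (0.0282% to 0.167%) of itself and *Tnnc2* in the highest *S1pr2 f/f* bin and 0.0745% (0.0341% to 0.141%) in the highest *S1pr2 f/f K14-Cre* bin, against 2.92% (2.36% to 3.58%) in the largest group. *Myh3* made up 0.181% (0.105% to 0.290%) and 0.131% (0.0892% to 0.186%) of itself and *Myh4* in these bins, 2.89% in the largest group and 11.7% (8.46% to 15.7%) in the second. *Myh8* made up 0.149% (0.0815% to 0.250%), 0.330% (0.261% to 0.411%), 7.67% and 12.8% of itself and *Myh4* at these places. From the largest to the second group *Myh4* fell from 17725 to 3839 CPM. *Myh3* had 528 and 509 CPM there, and *Myh8* 1473 and 561 CPM. The higher shares of the second group thus go with less *Myh4*, not with more *Myh3* or *Myh8*. Without the largest groups the *Myh8* shares of both highest bins were 0% (up to 0.0415%) and 0.0666% (0.0364% to 0.112%), with intervals that overlapped. The heavy chains are close in sequence, and whether the probes bind other family members was not tested. The shares of *Myh3* and *Myh8* also depend on *Myh4* as the counterpart. Its log2 ratio of the *S1pr2 f/f K14-Cre* over the *S1pr2 f/f* section was 2.51, against 1.25 for *Myh1* and 0.54 for *Myh2*. Shares against these other adult fast forms were not taken.

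**Figure D5:**
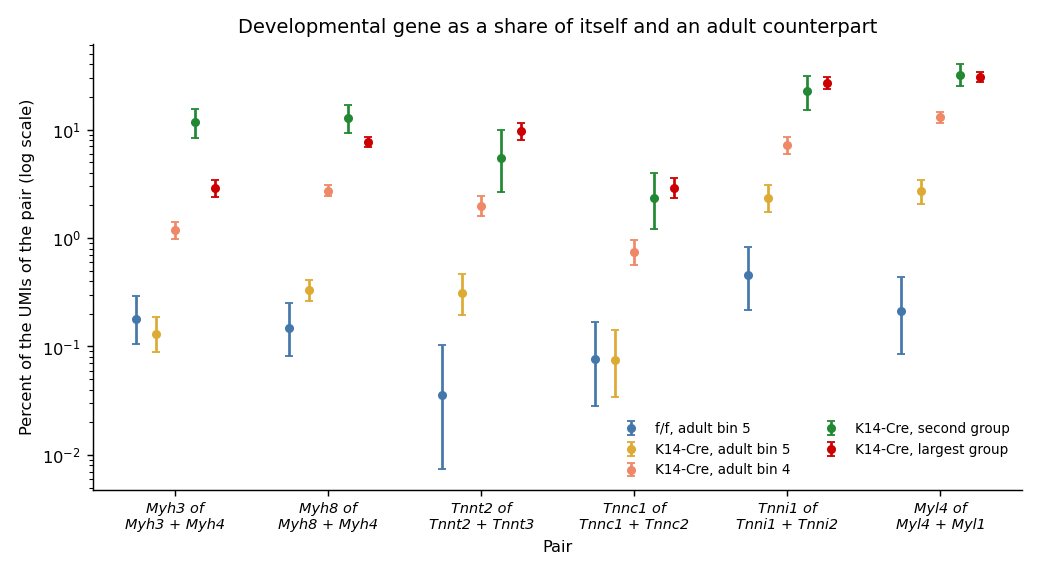
Share of each developmental gene among its own UMIs and those of an adult counterpart (percent, log axis), with 95% Clopper-Pearson intervals, in the adult-richest bin of the S1pr2 f/f section, the 2 adult-richest bins of the S1pr2 f/f K14-Cre section and its groups of member-rich spots. Every pair has a higher share in both groups than in either section's bin 5, where the intervals of Myh3 and Tnnc1 overlap between sections. The groups were picked by member share and bin 5 by adult share, so the higher share in the groups is largely built in and nothing is read from it.

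Other muscle genes, from fixed lists, were compared between member-rich and other *S1pr2 f/f K14-Cre* spots as log2 ratios. In that contrast 6.54% of 15493 genes were at least 2-fold higher, and the 8 members, which define it, all were. Of the nerve-muscle synapse list, 5 of 9 genes that reached 20 UMIs were higher by 2-fold or more: the fetal acetylcholine receptor subunit *Chrng* (2.80, 1.96 to 3.65), the subunits *Chrnd* (2.18) and *Chrna1* (2.04), the adhesion molecule *Ncam1* (2.02) and the transcription factor *Runx1* (1.21). The adult receptor subunit *Chrne* had -0.02 (-1.75 to 1.37) and the synapse kinase *Musk* -0.04. In the largest group 24 UMIs were *Chrng* and 3 *Chrne*, or 88.9% (70.8% to 97.6%) *Chrng*, against 61.2% (49.99% to 71.6%) in the whole *S1pr2 f/f K14-Cre* section and 47.8% (32.9% to 63.1%) in the whole *S1pr2 f/f* section, where they had 22 and 24 UMIs beside a receptor mean of 11.8.

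Of 11 further genes of developing fibres, 2 were at least 2-fold higher: the calcium-binding *Casq2* (3.40, 3.04 to 3.76), a calsequestrin of slow, cardiac and developing muscle, and *Igfn1* (1.73, 0.80 to 2.62). Of 5 slow-fibre genes with enough UMIs, 1 was, the slow troponin T gene *Tnnt1* (2.39, 2.04 to 2.74), while the slow myosin *Myh7* (-0.19, -1.59 to 0.97) and the calcium pump *Atp2a2* (-0.70, -0.87 to -0.53) were not, although *Atp2a2* had 0.73 when only the 2 bins richest in adult muscle were compared. Heart genes, looked at because *Tnnt2*, *Tnnc1* and *Myl4* are also used there, had 0 of 4 higher and 1 lower, *Mybpc3*, from 1 and 23 UMIs. Their counts in the *S1pr2 f/f K14-Cre* section, 18 to 27 UMIs for each of the 6 listed, were near the receptor mean of 17.0, and *Tnni3*, cardiac troponin I, had 0 UMIs in the member-rich spots. Adult fast genes had 1 of 14 higher, *Myh1* (1.13).

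Regulators and stem-cell genes of muscle gave low counts. Of 9 with at least 20 UMIs, *Tead4* was 2-fold higher (1.01, 0.17 to 1.79), and *Six4* had 1 UMI in the rich spots and 23 elsewhere, with an interval that included 0. The regulator *Myf6* had 0.71 (0.31 to 1.11). The satellite cell factor *Pax7* had 3 UMIs in the rich spots and 29 elsewhere, and none in the largest group, where a count of 0 allows up to 15.3 CPM. *Mymx* (myomerger), the fusion partner of *Mymk*, had 19 UMIs in the whole section, near the receptor mean. Of 4 proliferation genes 0 were higher and 1, *Birc5* (-1.37), was at least 2-fold lower, with 0.05 within the same 2 bins.

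Genes that are highest in fetal tissue or in remodelled matrix had 5 of 7 higher. These were the imprinted genes *Mest* (3.63, 2.92 to 4.37), *Igf2* (2.70, 2.10 to 3.30), a growth factor, and *Cdkn1c* (1.30, 0.76 to 1.82), a cell cycle inhibitor, with the matrix proteins *Postn* (3.50) and *Tnc* (2.72). *Mest* had 56 UMIs in the 95 rich spots and 25 in the other 852, and 47 of its 81 UMIs in the section lay in the largest group. *Dlk1* had -0.18 (-1.47 to 0.91) and *Plagl1* 0.70 (-0.49 to 1.75). Over whole sections, *Mest* had 3.95 CPM in the *S1pr2 f/f* section and 28.5 CPM in the *S1pr2 f/f K14-Cre* section, whereas *Postn* had 80.9 and 112.8 CPM and *Tnc* 424 and 359 CPM.

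Markers of some other tissues also differed between member-rich and other spots. Of 8 dermis genes *Dcn* was lower (-0.37, -0.55 to -0.19), and *Lum* (0.31) and *Dpt* (0.58) stayed below 2-fold. The other 5 were at least 2-fold higher, led by *Col1a1* (1.68), and the list took 39484 CPM in rich and 16788 CPM in other spots. Of 8 macrophage genes 2 were, *C1qa* (1.22) and *Lyz2* (1.05, -0.59 to 2.47, from 22 UMIs), the list taking 3266 and 1777 CPM, with *Adgre1* at 84.9 and 49.98 CPM (0.76, 0.19 to 1.31) and *Cd163* the other way (-0.84, -1.38 to -0.35). Of 15 epidermis genes 14 were at least 2-fold lower. The part of these tissues in the pattern of the members was not tested. Receptor genes had 5574 CPM in rich and 7615 CPM in other spots, so the background was lower where the members were high. Of the remaining lists, smooth muscle, Schwann cell and blood genes had 0 higher and 0 lower, fat genes had 2 of 7 lower and hair genes 3 of 5 lower.

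Because the other spots include epidermis, the lists were also compared, as an addition after seeing the data, within the 2 bins richest in adult muscle alone. There 4 of 6 synapse genes that reached 20 UMIs were at least 2-fold higher in member-rich spots, with *Chrng* at 3.88 (2.45 to 5.64), as were 5 of 5 genes of the fetal and matrix list, with *Tnc* at 4.53 (4.11 to 4.97) and *Mest* at 3.71 (2.73 to 4.82). *Casq2* had 2.64 (2.22 to 3.06) and *Tnnt1* 1.54 (1.16 to 1.92). The sign of *Atp2a2* turned, to 0.73 (0.47 to 0.99), and *Birc5* had 0.05 (-2.03 to 1.74) and the proliferation gene *Mki67* 0.83 (-0.08 to 1.69). Of 8 dermis genes 2 were at least 2-fold higher, *Col1a1* (1.67) and *Col1a2* (1.45), of 7 macrophage genes 0 were, and 4 of 11 epidermis genes were lower. Also lower were 3 of 5 Schwann cell genes, 1 of 6 smooth muscle genes, 1 of 6 fat genes and 1 of 14 adult fast genes. The share of all genes that differed 2-fold was not computed for this contrast, so nothing is read from these counts. The spots were chosen with the members themselves, so these values describe what lay in the same spots.

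The genes most like the members over spots with at least 1000 UMIs were ranked by Spearman's rho among 5767 genes with at least 100 UMIs, over 870 spots. The first was *Thbs4* (rho 0.373), a thrombospondin of tendon and muscle attachment, followed by *Postn* (0.283), *Myh1* (0.276), *Casq2* (0.275), *Igfbp5*, *C1qtnf3*, *Zeb2*, *Mfap5*, *Col3a1* and the oxygen-binding *Mb* (0.254). All values were low. By fold in member-rich spots the first were *Msln* (13.7-fold), *Postn* (11.3), *Casq2* (10.5), *C1qtnf3* (10.5), *Col8a1* (7.67), *Thbs4* (7.43), *Tnc* (6.60), *Nes* (6.52), the intermediate filament nestin of young fibres and progenitors, *Cthrc1* (6.42) and *Col12a1* (5.57). *Thbs4* had 660 UMIs in the *S1pr2 f/f K14-Cre* section and 106 in the *S1pr2 f/f* section, a log2 ratio of 3.54. Lowest was *Krt14* (rho -0.274), the keratin of basal epidermis.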

How the data were processed

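Formalin-fixed, paraffin-embedded skin was cut at 10 μm and measured with Visium CytAssist probes (11 mm capture areas). For each spot under tissue the deposited values were unnormalized UMI counts of each gene, which the authors made with Space Ranger 3.0.0 on mm10 per the labels and file headers. Image and read processing in Partek Flow is stated in the methods. The probe set is not given in the sources used here. Members and gene lists were chosen with earlier results of these data known. Genes were matched by symbol (*Cdh15*, *Actc1*, *Ccnb1* and *Hba-a1*, of the lists, were not analysed here). Named genes were the members, list genes, the 10 with the highest Spearman correlation and the 10 with the highest fold in member-rich spots. No differential test was run, because each group had 1 section. Intervals were Poisson (CPM), Clopper-Pearson (shares) and conditional binomial (ratios), checked on simulated data. Spots with at least 500 UMIs entered bins and groups, and neighbours were the 6 nearest on the array. Python 3.11.15, scipy 1.17.1, R 4.3.3 and edgeR 4.0.16 (TMM factor only) were used. Alternatives changed spot filters, bins, thinning, scaling and members. Coordinates and promoters came from RefSeq on GRCm38.p6.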

Additional observations from a re-analysis of the deposited data

How the results depend on the processing

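No paired analysis was possible because each genotype had 1 section. For the 5 summary values, 0 alternatives turned a direction. Of single members, leaving out the largest group took the fold of the fourth over the highest adult bin below 1 for *Tnnc1* (6.39 to 0.897) and *Tnni1* (2.37 to 0.807). Both intervals without the group included 1. The cause of the shifts was not tested. The log2 ratio of the members between sections (4.29) was 3.36 after thinning to 1000 UMIs, 3.92 with the TMM factor, 2.56 per adult muscle UMI, 5.27 with the receptor mean taken off, 3.51 as a mean over spots and 4.07 without *Myh8*, the member with the most UMIs. It was 3.26 without the largest group of member-rich spots of each section, an alternative chosen after seeing the data. For the highest adult bin over the others in the *S1pr2 f/f K14-Cre* section (-0.57), 10 bins gave -1.81 and leaving out the largest group gave -0.15, with an interval that included 0. In the *S1pr2 f/f* section (1.75) taking off the receptor mean gave 3.55. The correlation of member and adult shares ran from 0.147 to 0.181 in 5 alternatives, and the share of member-rich spots in the largest group from 21.1% to 34.0% in 5. All other values stayed within the counting intervals. Counts limit the *S1pr2 f/f* values most, where single members rest on 14 to 34 UMIs although that section has more UMIs in all. Spots are not replicates, and 1 section per genotype leaves the spread between mice unknown.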
